A study of Arabidopsis thaliana with 8 samples.

Results

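The insertion line KO-56 was set against the Arabidopsis accession Col-0 across the probe sets of the ATH1 array. Per the labels, the line has a WRKY gene disrupted by T-DNA; they do not say which WRKY gene it is, so the level of the disrupted gene could not be checked. The line was found by its array title and has 1 array, and Col-0 has 2 arrays, titled Col-0-L and Col-0-S without an explanation of L and S. These 3 arrays are part of 8 in the series, whose other 5 arrays hold 1 insertion line each (KO-30, KO-40, KO-54, KO-07 and KO-02). All plants were 35 days old and had just begun to bolt, grew at 70% humidity with 22 °C days and 19 °C nights, and gave whole rosettes without stem and flowers. No treatment distinguishes the groups, and the series title names WRKY factors and early leaf senescence as its subject. With 1 array of the line, the comparison of KO-56 with Col-0 is a description.

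WRKY proteins are plant transcription factors that bind the W-box, a short DNA element in the promoters of many defence and senescence genes. Several of them act in the responses to salicylic acid and jasmonate, the hormones of defence against microbes and insects, and others act as leaves age. A rosette at bolting is a mature leaf organ, in which photosynthesis genes are abundant and the first senescence genes come on.

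The values are signals on a linear scale, and differences are given as log2(signal + 5) of KO-56 minus the mean of Col-0, so that changes of dim probe sets are understated. Of the 22746 probe sets without controls, 15922 passed a filter on low mean signal. The median signal was 39.1 on the KO-56 array and between 37.2 and 38.6 on the Col-0 arrays. KO-56 correlated with Col-0-L at r = 0.982 and with Col-0-S at r = 0.980 across these probe sets, and the Col-0 arrays with each other at r = 0.984. The actin control, whose 3' to 5' ratio grows as RNA breaks, stood at 9.91 in KO-56, between 8.41 and 29.5 in the other lines with KO-54 the highest, and at 9.98 and 10.9 in Col-0. The leaf label fits the markers: 5 rosette leaf genes summed to 12297 in KO-56, between 10288 and 12221 in the other lines, and to 14673 and 12240.0 in Col-0. The 2 floral markers summed to 5.71 in KO-56 and to 8.71 and 1.76 in Col-0, and the 3 root markers to 59.8 in KO-56 and to 77.8 and 66.4 in Col-0.

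A probe set counted as shifted when KO-56 differed from the Col-0 mean by at least 2-fold and by more than Col-0-L differed from Col-0-S. By this rule 42 probe sets were higher in KO-56 (0.264% of those past the filter) and 89 were lower (0.559%), 131 in all (0.823%). With each array centred on its median the split was 31 higher and 101 lower, and after quantile normalization 31 and 113. Against Col-0-S alone there were 88 higher and 105 lower, and against Col-0-L alone 84 and 107. The differences of these 131 ran from -2.30 to 1.90. The Col-0 arrays themselves differed by 2-fold at 128 probe sets, 55 with the higher signal in Col-0-L and 73 with the lower. Counted in the same way, array against array and by the fold alone, KO-56 differed by 2-fold from Col-0-L at 210 probe sets and from Col-0-S at 212, more than the Col-0 arrays from each other. At the edge of the rule, AT1G14640 was just inside at 1.01 and AT3G09310 just outside at 0.996, while AT1G77405 was just inside at -1.002 and PR-1-LIKE just outside at -0.97.

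Most shifted probe sets were dim. The dimmest 5308 probe sets held 38 of the 42 higher and 83 of the 89 lower ones (2.28% of them), the middle 5306 held 4 and 5 (0.17%), and the brightest 5308 held 0 and 1 (0.0188%). Among the 89 lower probe sets, 54 had a KO-56 signal under 5, the size of the number added before the log. The median signal of the 42 higher ones was 29.5 in KO-56 and 10.5 in Col-0, and that of the 89 lower ones 4.08 in KO-56 and 18.7 in Col-0. Only 4 higher and 7 lower probe sets kept the 2-fold difference among the 11373 with a mean above the median. The part of low signal in these differences was not tested.

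**Figure D1:**
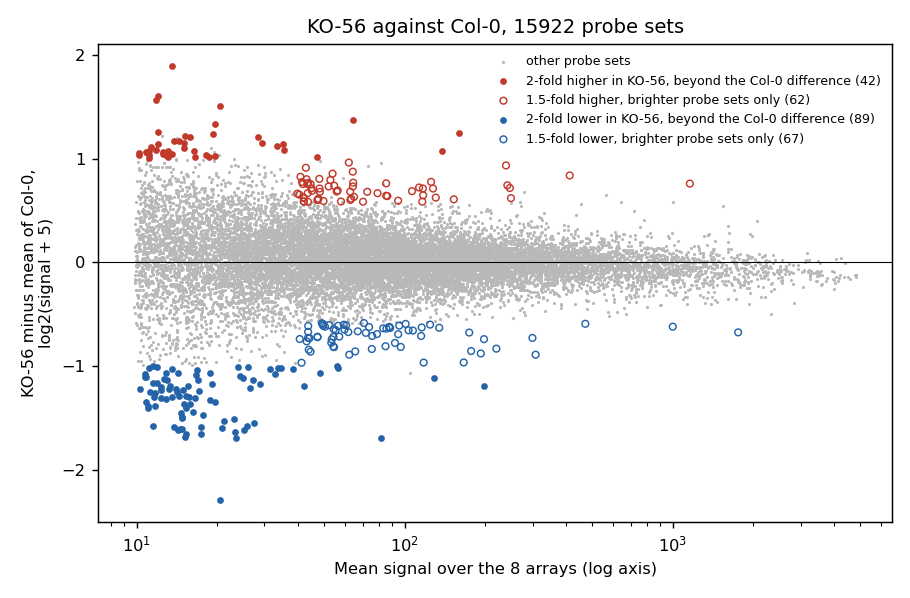
Difference of KO-56 from the mean of Col-0 in log2(signal + 5) for the 15922 probe sets past the filter, against their mean signal over the 8 arrays on a log axis. Filled points are the 42 higher and 89 lower probe sets at 2-fold, open circles those added at 1.5-fold among the brighter probe sets, and the filled points crowd at the dim end.

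Because of that, a second selection was made after the data were seen, of probe sets above the median signal that differed by at least 1.5-fold and by more than the Col-0 arrays. It held 66 higher probe sets (0.58% of 11373) and 74 lower ones (0.651%), 140 in all (1.23%). Array against array and by the fold alone, KO-56 differed by 1.5-fold from Col-0-L at 229 of the brighter probe sets and from Col-0-S at 339, and the Col-0 arrays from each other at 282, between those counts.

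KO-56 was among the lines closer to Col-0 by the brighter selection and in the middle by the 2-fold rule. At 2-fold it had 131 shifted probe sets, against 56 in KO-02, 47 in KO-07, 238 in KO-54, 209 in KO-40 and 74 in KO-30. In the brighter selection it had 140, against 88 in KO-02, 124 in KO-07, 633 in KO-54, 470 in KO-40 and 351 in KO-30. All 6 comparisons share the same 2 Col-0 arrays, so their counts are not independent.

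**Figure D2:**
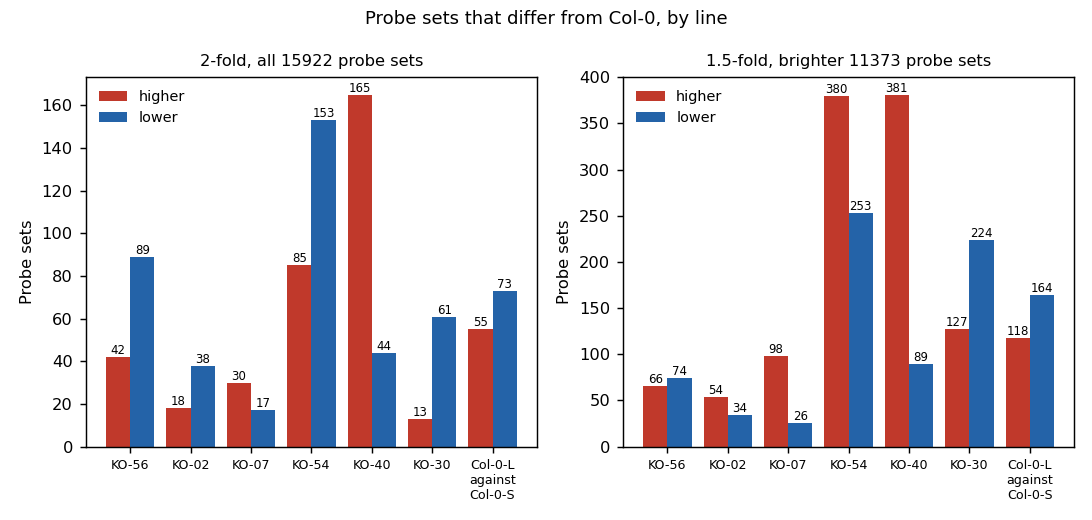
Number of probe sets higher (red) and lower (blue) than the Col-0 mean in each line, KO-56 at the left, with the difference between the Col-0 arrays at the right; the left panel uses the 2-fold rule and the right panel the 1.5-fold rule on brighter probe sets. KO-56 has 42 higher and 89 lower at 2-fold, and 66 and 74 at 1.5-fold. The Col-0 pair needs only the fold between single arrays, so that its bars are not counted like those of the lines.

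Among the 28 higher probe sets that the annotation pairs with 1 gene, 4CL8, which encodes a 4-coumarate-CoA ligase-like enzyme, stood apart most cleanly. Its signal was 50.7 in KO-56, between 14.1 and 19.7 in the other lines, and 13.3 and 16.0 in Col-0, a difference of 1.51. KO-56 lay above every other array, and the other lines overlapped Col-0. UF3GT, a glycosyltransferase that adds sugar to anthocyanin pigments, had 60.0 in KO-56, between 21.1 and 44.6 in the other lines, and 16.3 and 35.8 in Col-0. Its difference of 1.14 was not much above the 0.93 between the Col-0 arrays.

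OSM34, an osmotin-like protein of the PR-5 defence family, was one of the few brighter genes past 2-fold. It had 108 in KO-56 and 44.0 and 41.3 in Col-0, a difference of 1.25. Here KO-56 lay between Col-0 and other lines: OSM34 reached 178 in KO-02, 163 in KO-07, 223 in KO-54 and 471 in KO-40, and stood at 45.4 in KO-30. The bulk signal cannot tell more RNA per cell from more cells of a type, for this or any gene here.

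AT3G53980, a protein of the lipid-transfer family, had 296 in KO-56, between 81.2 and 151 in the other lines, and 117 and 162 in Col-0, a difference of 1.07. Its relative AT1G62500, of the same broad family, showed the largest named difference downward. AT1G62500 had 37.3 in KO-56, between 58.2 and 88.2 in the other lines, and 114 and 153 in Col-0, a difference of -1.69. All 6 lines were below both Col-0 arrays at AT1G62500, with KO-56 the lowest, whereas AT3G53980 was above both Col-0 arrays in KO-56 alone.

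The other genes with the largest differences upward were dim in every array. AT5G53740 had 38.1 in KO-56, between 6.53 and 17.6 in the other lines, and 1.78 and 14.7 in Col-0, and its Col-0 arrays differed by 1.54 themselves. AT3G10580, a MYB-like protein, had 31.3 in KO-56, between 5.06 and 14.2 in the other lines, and 5.68 and 9.07 in Col-0. AT2G19010, a GDSL-type lipase, and AT2G25980, a jacalin lectin that binds sugars, had 32.4 and 31.3 in KO-56, and no other array exceeded 15.6 for either. The rest of the 12 largest were AT1G12720 (1.61), which the gene table lists as a pseudogene, AT3G18840 (1.22), AT4G23840 (1.15), AT5G53030 (1.15) and AT3G07530 (1.11). KO-56 lay above all 7 other arrays at 34 of the 42 higher probe sets, against 17.5% of all probe sets past the filter, with the caveat that the rule already set KO-56 above the Col-0 mean.

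Downward, 42 single-gene probe sets passed the rule, and most were at low signals in KO-56 and dim in Col-0. Of the 42, 28 had a KO-56 signal under 5. AT1G33055, a small protein gene known for its induction by low oxygen, had 3.16 in KO-56, between 20.2 and 34.3 in the other lines, and 17.3 and 19.9 in Col-0, a difference of -1.53. NET2D, an actin-binding protein, had 1.82 in KO-56, between 12.4 and 20.8 in the other lines, and 14.5 and 19.7 in Col-0. At both genes KO-56 lay below every other array. The other lines overlapped Col-0 at NET2D and were above both Col-0 arrays at AT1G33055. AT2G20560, a DnaJ-type heat shock protein, had 3.57 in KO-56, between 20.0 and 28.7 in the other lines, and 11.3 and 17.7 in Col-0. There the other lines were above both Col-0 arrays while KO-56 was below them.

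RAPTOR2, a subunit of the TOR kinase complex that ties growth to nutrients, had 4.03 in KO-56, between 8.39 and 23.8 in the other lines, and 21.3 and 25.7 in Col-0. AT5G16230, of the family of stearoyl-ACP desaturases that make unsaturated fatty acids, had 1.88 in KO-56, between 10.1 and 23.7 in the other lines, and 12.0 and 17.3 in Col-0. AT5G06630, an extensin-like wall protein, had 3.93 in KO-56, between 13.6 and 20.0 in the other lines, and 21.8 and 16.9 in Col-0. In all 3 genes the KO-56 signal was the lowest of the 8 arrays. The remaining members of the 12 largest were AT5G24750 (-1.66), AT4G16610 (-1.60), AT1G51920 (-1.59), AT1G73930 (-1.58), AT3G48120 (-1.47) and AT5G49390 (-1.41). KO-56 lay below all 7 other arrays at 83 of the 89 lower probe sets, against 12.3% of all probe sets past the filter, where again the rule had already set KO-56 below the Col-0 mean and the share says little of these members.

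limma was run beside the description, with KO-56, the other 5 lines and Col-0 as 3 groups and 5 residual degrees of freedom. The lone KO-56 array was assumed to vary like the arrays of the other groups, and as the labels do not mention separate cultures, p-values rest on the spread among these arrays. That spread comes from 5 insertion lines with 1 array each and from the Col-0 pair, so that it mixes differences between lines with array noise. Against Col-0, 1 probe set passed an adjusted p of 0.05 (0.00628%), and 876 had an unadjusted p under 0.05, where chance gives 796.1. The call was 266886_at, which the annotation does not list. It fell to 2.22 in KO-56, against 16.7 and 17.4 in Col-0, a difference of -1.61 ± 0.17 (SE, limma adjusted p = 0.0468, lower than in 2 of 2 Col-0 arrays), and lay between 14.3 and 17.6 in the other lines. It passed without KO-54 (adjusted p = 0.0341) and did not pass without any other single array of the other lines or Col-0 (limma adjusted p between 0.0940 and 0.245, the last without Col-0-L). Without KO-54 there were 3 calls against Col-0. The next smallest p upward belonged to 4CL8, which did not pass (limma adjusted p = 0.123).

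Against the other 5 lines, 11 probe sets passed limma (0.0691%), 1 higher (0.00628%) and 10 lower (0.0628%), and 1451 had an unadjusted p under 0.05. 4CL8 rose by 1.35 ± 0.17 (SE, limma adjusted p = 0.0448) and was higher than in 5 of 5 lines. AT1G33055 fell by 1.89 ± 0.24 and AT2G20560 fell by 1.75 ± 0.22 (SE, limma adjusted p = 0.0448 for each), and NET2D fell by 1.68 ± 0.22 (SE, limma adjusted p = 0.0458), each lower than in 5 of 5 lines. The other 7 calls were unlisted probe sets, all lower in KO-56. Without KO-30 there were 2 calls, and without any other single array 0. Each of the 11 was dim, and no call against either group was left with a filter at the median signal or a pseudocount of 20. Both contrasts share the KO-56 array.

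**Figure D3:**
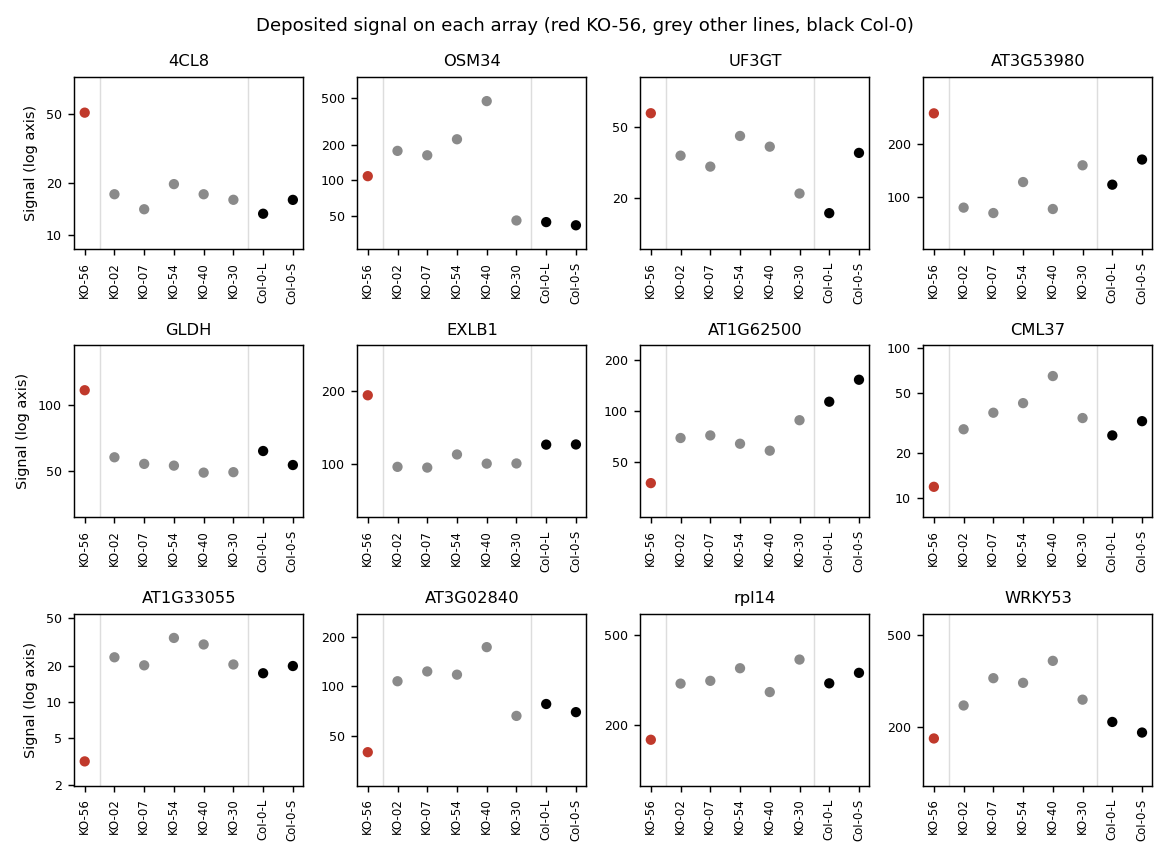
Deposited signal (log axes that differ between panels) of 12 genes on each array, with KO-56 in red at the left, the other 5 lines in grey and the Col-0 arrays in black at the right. KO-56 lies above all other arrays at 4CL8, UF3GT, AT3G53980, GLDH and EXLB1, below all others at AT1G62500, CML37, AT1G33055, AT3G02840, rpl14 and WRKY53, and between Col-0 and 4 of the lines at OSM34.

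The brighter genes are better measured, though their differences are smaller. The examples that follow were chosen after their values were seen. GLDH, which makes the last step of vitamin C synthesis, had 117 in KO-56, between 49.2 and 57.8 in the other lines, and 61.8 and 53.3 in Col-0, a difference of 0.96. EXLB1, an expansin-like wall protein, had 191 in KO-56, between 96.9 and 109.7 in the other lines, and 120.3 and 120.5 in Col-0, a difference of 0.65. For both genes KO-56 stood clear of the other 7 arrays, which lay close together, and neither passed limma against the other lines (adjusted p = 0.0508 for GLDH and 0.085 for EXLB1).

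AT2G21430, a papain-type protease related to RD19, had 77.2 in KO-56, between 30.6 and 42.2 in the other lines, and 46.6 and 38.0 in Col-0. AT4G33150, the bifunctional enzyme that breaks down lysine, had 91.1 in KO-56, between 55.5 and 77.7 in the other lines, and 49.2 and 56.5 in Col-0. SWEET13, a sucrose exporter, had 162 in KO-56, between 78.7 and 139.7 in the other lines, and 85.7 and 113 in Col-0. In these 3 genes KO-56 was again the highest array, by a small margin over KO-54 or KO-40 in the last 2. KO-56 was above all 7 other arrays at 48 of the 66 higher brighter probe sets, which the rule had chosen for a high KO-56 signal, and at 14.3% of all brighter probe sets.

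At AT4G16260, AT2G43590 and PDF1.2, which encode secreted defence proteins, KO-56 was above both Col-0 arrays and below at least 1 other line. AT4G16260, a beta-1,3-glucanase, had 232 in KO-56, between 129 and 1308 in the other lines, and 118 and 137 in Col-0. AT2G43590, of the chitinase family, had 127 in KO-56, between 67.8 and 372 in the other lines, and 65.3 and 79.2 in Col-0. PDF1.2, the defensin that reports jasmonate and ethylene signalling, had 795 in KO-56, between 425 and 2945 in the other lines, and 368 and 592 in Col-0. The lowest of the other lines was KO-30 and the highest KO-40 at each of these 3 genes, and KO-56 lay inside their range.

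The lower brighter genes described here had their lowest signal in KO-56, apart from THI2.2. AT3G02840, an armadillo-repeat gene that responds early to fungal elicitors, had 39.7 in KO-56, between 66.0 and 173 in the other lines, and 77.9 and 69.5 in Col-0. AT3G01830, a calmodulin-like calcium sensor, had 51.2 in KO-56, between 80.8 and 154 in the other lines, and 71.5 and 89.0 in Col-0. AT5G67340, an armadillo-repeat protein, had 20.0 in KO-56, between 30.7 and 60.9 in the other lines, and 35.6 and 37.9 in Col-0. KO-56 minus the other lines was -1.39, -1.10 and -1.01 in that order of genes, and none passed limma (adjusted p = 0.282, 0.324 and 0.282). AT1G23710 (32.6 in KO-56, 51.1 and 75.1 in Col-0) and AT1G08940 (35.2 in KO-56, 47.7 and 75.0 in Col-0) were also lowest in KO-56.

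AT4G10270, a wound-responsive gene that, like AT1G33055, is induced by low oxygen, had 25.7 in KO-56, between 39.5 and 62.5 in the other lines, and 44.7 and 78.0 in Col-0. Its difference of -1.07 exceeded the 0.74 between the Col-0 arrays. THI2.2, a thionin, had 43.9 in KO-56 and 86.1 and 66.2 in Col-0, and all other lines were at 61.8 or less, so that its lower level was common to the lines. GH9B13, of the endoglucanase family, had 28.4 in KO-56, between 33.4 and 53.2 in the other lines, and 50.2 and 60.1 in Col-0. KO-56 was below all 7 other arrays at 64 of the 74 lower brighter probe sets, which the rule had chosen for a low KO-56 signal, and at 12.6% of all brighter probe sets.

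Beyond single genes, 49 gene lists were counted. Of these, 29 had at least 3 probe sets past the filter, 15 had 1 or 2, and 5 had none. The lists held 286 probe sets past the filter, and 4 of them passed the 2-fold rule (UF3GT, CML37, XTH33 and JAL33). For comparison, all 15922 probe sets had a median difference of 0.01, with 8429 higher and 7493 lower, and 24.4% lay above and 21.7% below Col-0 by more than the Col-0 arrays differed. No list member passed limma in either contrast.

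Calcium sensors, which read calcium pulses in stress signalling, were mostly lower. CML37 had 11.9 in KO-56, between 28.6 and 64.7 in the other lines, and 26.1 and 32.4 in Col-0, a difference of -1.02. CML43 had 7.34 in KO-56, between 13.9 and 21.5 in the other lines, and 14.0 in each Col-0 array. KO-56 was the lowest array at both. Of 7 calcium sensor probe sets, 6 were below the Col-0 mean in KO-56, as were 7493 of all 15922 probe sets. By more than the Col-0 arrays differed, 3 of the 7 were lower, against 21.7% of all probe sets. The median of the 7 was -0.12. The same median was 0.09 in KO-02, 0.30 in KO-07, 0.21 in KO-54, 0.50 in KO-40 and 0.19 in KO-30.

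The matched members of the senescence and WRKY lists, the subject of the series, were close to Col-0 in KO-56. For the 23 listed senescence genes the annotation gave only 5 probe sets. Members of either list on the 8730 probe sets that the annotation does not list could not be counted. The median of the 5 senescence probe sets was 0.03 in KO-56, and 0.31, 0.31, 0.45, 0.84 and 0.30 in KO-02, KO-07, then KO-54, KO-40 and KO-30. WRKY53, a regulator of senescence onset, had 179 in KO-56, between 248 and 387 in the other lines, and 211 and 189.6 in Col-0. KO-56 was the lowest array, with a difference of -0.16 from Col-0 that was just beyond the one between the Col-0 arrays. All other lines were above both Col-0 arrays. The limma difference from the other lines was -0.75 ± 0.22 (SE), which did not pass (adjusted p = 0.346).

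WRKY6, another senescence-associated factor, had 31.3 in KO-56, between 30.9 and 66.1 in the other lines, and 30.05 and 31.25 in Col-0. SAG101, a lipase-like partner of EDS1 in immunity, had 55.2 in KO-56, between 72.8 and 120.4 in the other lines, and 52.5 and 63.5 in Col-0. KO-56 was thus within or at the edge of the Col-0 range at WRKY6 and SAG101. WRKY20 and WRKY22 were a little higher (0.27 and 0.24), each by more than the Col-0 arrays differed, and WRKY47 lay inside the Col-0 range. Of the 6 WRKY probe sets that the annotation gave, 5 were past the filter. Their median was 0.09 in KO-56, and 0.28, 0.46, 0.15, 0.47 and 0.01 in the other lines in the same order.

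For 4 jasmonate and ethylene probe sets the median was 0.10 in KO-56, 0.91 in KO-02, 0.77 in KO-07, 1.53 in KO-54, 1.83 in KO-40 and -0.13 in KO-30, and the Col-0 arrays differed by a median of -0.58 (Col-0-L minus Col-0-S). In KO-56 the list split: PDF1.2 (0.76) and PDF1.2b (0.58) were higher, while PDF1.4 (-0.37) and the thionin THI2.1 (-0.52) were lower. For 4 early stress regulators the median was 0.05 in KO-56 and between 0.17 and 0.82 in the other lines. STZ, a zinc finger repressor induced by stress, had 476 in KO-56, between 566 and 952 in the other lines, and 459 and 549.7 in Col-0. The salicylic acid list held only GRX480, a glutaredoxin, at -0.17 and SAG101 at -0.06.

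For autophagy, 10 probe sets had a median of 0.02 in KO-56 and between 0.08 and 0.55 in the other lines. APG8A, a ubiquitin-like protein of the autophagosome, had 276 in KO-56, between 330.0 and 459 in the other lines, and 257 and 266 in Col-0. The defensin and thionin list of 9 stood at 0.02, and the cold and abscisic acid list of 4 at 0.04, with LTI30, a dehydrin, as its largest member at 0.25.

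**Figure D4:**
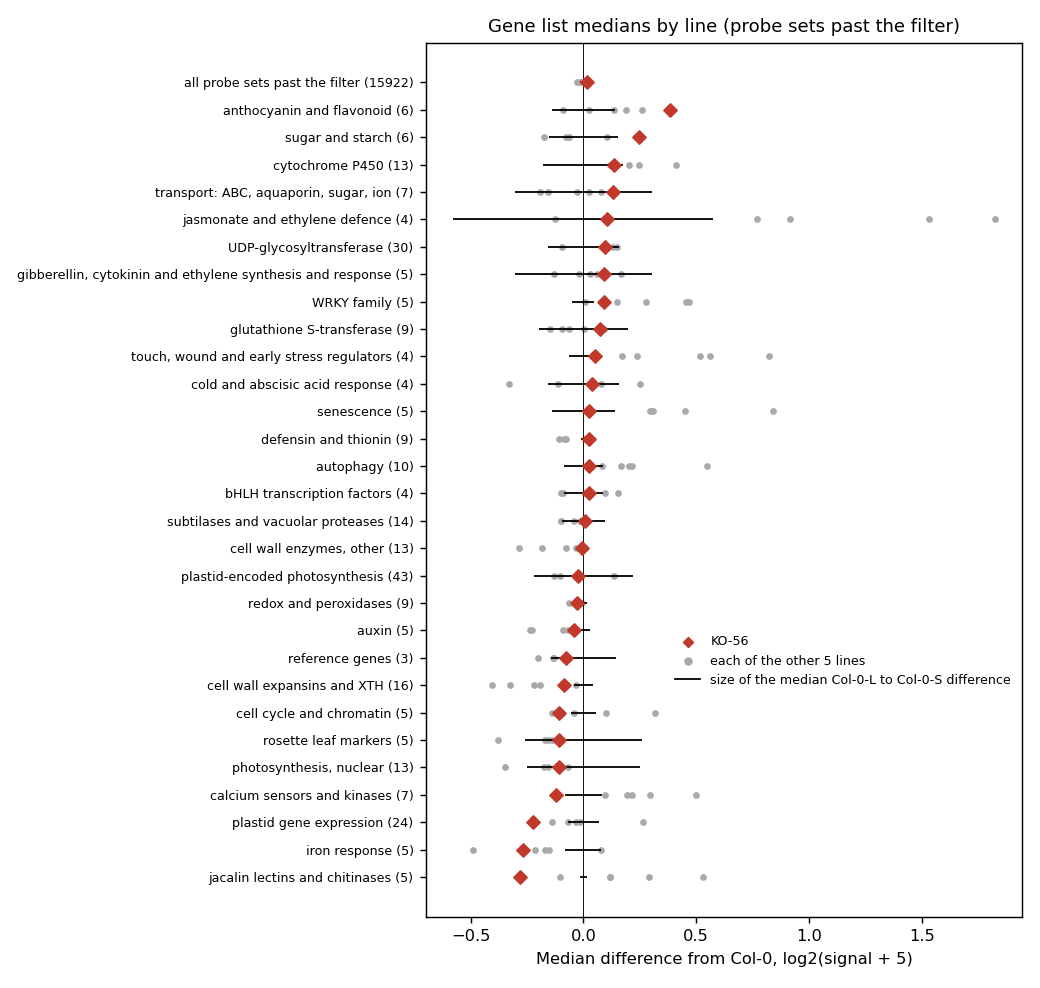
Median difference from Col-0 in log2(signal + 5) of the 29 gene lists with at least 3 probe sets past the filter, numbers of probe sets in parentheses, for KO-56 (red diamonds) and each of the other 5 lines (grey), with all probe sets in the top row. Black bars span plus and minus the size of the median difference between the Col-0 arrays; KO-56 stays near 0 in the senescence, WRKY and early stress lists, where 4 or more of the other lines lie to its right.

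Among the 29 lists with at least 3 probe sets past the filter, anthocyanin and flavonoid genes had the highest median in KO-56, 0.38 over 6 probe sets, against 0.14, 0.02, 0.26, 0.19 and -0.09 in KO-02, KO-07, then KO-54, KO-40 and KO-30. Besides UF3GT, DFR, the reductase on the way to anthocyanidins, had 78.4 in KO-56, between 42.9 and 58.3 in the other lines, and 37.7 and 71.6 in Col-0. AT5MAT, which adds malonyl groups to anthocyanins, had 15.8 in KO-56, between 6.93 and 13.2 in the other lines, and 12.8 and 6.11 in Col-0. KO-56 was the highest array at all 3 genes, but the differences of DFR (0.54) and AT5MAT (0.56) were smaller than those between the Col-0 arrays (0.84 and 0.68). Among the list's flavonol glycosyltransferases, UGT78D1 stood at 0.22 and UGT78D2 at -0.21. The symbol CHI in this list belongs to a chitinase locus, AT2G43570 (-0.28), and without it the median of the other 5 was 0.54, an alternative added after the data were seen.

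Among the same 29 lists, sugar and starch genes followed at a median of 0.25 over 6 probe sets, against values between -0.17 and 0.11 in the other lines. SWEET4, a sugar transporter, had 71.4 in KO-56, between 42.2 and 52.8 in the other lines, and 51.1 and 45.1 in Col-0, a difference of 0.53. SWEET11, a sucrose exporter of the phloem, had 657 in KO-56, between 446 and 529.5 in the other lines, and 509 and 554 in Col-0. KO-56 was the highest array for both. APL3, a subunit of the enzyme that starts starch synthesis, was at 0.41, within the range of the other lines. SAG29, a sugar transporter of senescing leaves, had 27.7 in KO-56 and 17.2 and 32.1 in Col-0, while 4 other lines lay between 6.68 and 10.3 and KO-30 at 30.2.

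The genes of photosynthesis encoded in the nucleus were slightly lower, at a median of -0.11 over 13 probe sets. Of these, 12 were below the Col-0 mean, as were 7493 of all 15922 probe sets. By more than the Col-0 arrays differed, 3 of the 13 were lower, near the 21.7% of all probe sets. The medians were -0.10, -0.18, -0.16, -0.35 and -0.07 in the other lines in the order above, and the Col-0 arrays differed by 0.25. PSAE-1, a subunit of photosystem I, had 2789 in KO-56, between 2668 and 3208 in the other lines, and 3632 and 2996 in Col-0. Col-0-L was the highest array there, as it was for the summed rosette leaf markers. The 43 plastid-encoded photosynthesis probe sets had a median of -0.02, with petN of the cytochrome b6f complex the lowest at -0.54.

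Plastid genes for transcription and translation stood lower, at a median of -0.22 over 24 probe sets, with 17 below the Col-0 mean. Of these, 11 of 24 were below Col-0 by more than the Col-0 arrays differed, where 21.7% of all probe sets were, and 3 were above. The list's median was -0.07, -0.03, -0.02, -0.14 and 0.27 in KO-02, KO-07, then KO-54, KO-40 and KO-30. rpl14, a protein of the large plastid ribosomal subunit, had 172 in KO-56, between 279.8 and 390.1 in the other lines, and 306 and 340.5 in Col-0, a difference of -0.89. rpl16, of the same subunit, had 711 in KO-56, between 741 and 1195 in the other lines, and 1099.9 and 1090.3 in Col-0, a difference of -0.62. KO-56 was the lowest array at both.

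rpl14 and rpl16 are neighbours on the plastid genome, and the next genes on the rpl16 side, rps3 (-0.08) and rpl22 (0.07), were near Col-0, as was rpl36 (0.16) on the other side. The polymerase subunits rpoC1 (-0.41) and rpoC2 (-0.41) and the intron maturase matK (-0.40) were also below all 7 other arrays, while rpl33 (0.11) was above them. Of the other polymerase subunits, rpoB stood at -0.24 and rpoA at 0.17. nad4, a mitochondrial subunit of respiratory complex I, had 161 in KO-56, between 266 and 469 in the other lines, and 236 and 309 in Col-0.

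Iron response genes had a median of -0.27 over 5 probe sets. Of these, 4 were lower by more than the Col-0 arrays differed, where 21.7% of all probe sets were. AT1G47400, a peptide gene induced by iron shortage, had 11.6 in KO-56, between 7.29 and 13.1 in the other lines, and 26.2 and 22.9 in Col-0. AT5G05250, another gene induced by iron shortage, had 14.6 in KO-56, between 10.3 and 16.1 in the other lines, and 22.6 and 35.6 in Col-0. KO-56 lay inside the range of the other lines for both, and all 6 lines were below both Col-0 arrays.

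Of the 29 lists with at least 3 probe sets past the filter, jacalin lectins and chitinases had the lowest median. It was -0.28 over 5 probe sets. Of these, 4 were lower by more than the Col-0 arrays differed, where 21.7% of all probe sets were. JAL33 had 3.60 in KO-56, between 10.7 and 17.3 in the other lines, and 18.1 and 14.7 in Col-0. JAL22 had 6.06 in KO-56, between 12.5 and 17.2 in the other lines, and 14.7 and 11.8 in Col-0. Both are sugar-binding lectins, and KO-56 was the lowest array at both, as it was at the chitinase CHI with 549 in KO-56, between 623 and 1361 in the other lines, and 671 and 668 in Col-0. The lectin AT2G25980 described above went the other way and has no JAL symbol in the table used. AT2G43590 of the chitinase family, also described above and outside the list, was higher in KO-56 than in Col-0 as well. The list median thus covers only the members that the symbols matched.

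Among other lists with at least 3 probe sets, cytochrome P450 genes had a median of 0.14 over 13, with CYP71B29 as the largest at 0.72. By more than the Col-0 arrays differed, 7 of these were above and 0 below Col-0, against 24.4% and 21.7% of all probe sets. UDP-glycosyltransferases had 0.10 over 30 and glutathione S-transferases 0.07 over 9, with GSTU28 at 0.64. Expansins and XTH wall enzymes had -0.09 over 16, between EXLB1 at 0.65 and XTH33 at -1.08. XTH33, which cuts and rejoins xyloglucan, had 3.67 in KO-56, between 7.14 and 14.3 in the other lines, and 15.1 and 11.8 in Col-0. Proteases (0.01 over 14), other wall enzymes (-0.01 over 13) and the 3 reference genes (-0.08) were near the median of all probe sets. The 15 lists with 1 or 2 probe sets past the filter ran from -0.40, for root markers and for vegetative storage and myrosinase with 1 probe set each, to 0.44 for resistance genes and receptors with 1.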

How the data were processed

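Biotin-labelled material made from total RNA of 8 rosette samples was hybridised to ATH1 arrays. The deposited intensity values are linear signals made by the authors with MAS5, per the submitters' processing notes (no version is given in the sources used here). Leaving out 2% of the probe sets at each end, every array averaged 100.01, so nothing was rescaled. A pseudocount of 5 was added before log2, and probe sets with a mean above the 30th percentile were kept. Of 22746 probe sets, the platform annotation gave 13513 1 gene and 503 several, and did not list 8730; symbols were updated from a TAIR10.1 gene table holding 13436 of them. limma 3.58.1 in R 4.3.3 (lmFit, eBayes, two-sided, Benjamini-Hochberg over all probe sets past the filter) was tested on 15922 simulated probe sets. There 36% of 2-fold and 85% of 4-fold rises in 100 probe sets each were recovered, with 5 false calls among the unchanged ones. The simulated noise was normal without a signal floor, and every planted change was a rise. These rates therefore do not describe falls to low signals, which most calls here were.

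The line, the gene lists and the rules were chosen with earlier results of these data known. Named genes (66) were the 12 largest differences past the rule in each direction, the list members past it or, where none passed, the member with the largest difference, and up to 3 limma calls per direction; all other named genes were chosen after their values were seen. Genes with several probe sets were kept apart. The number of arrays limits the precision. Alternatives were a pseudocount of 1 or 20, no filter, a filter at the median, centred or quantile-normalized arrays, trended and robust variance, a stricter Col-0 criterion, and leaving out each array. Promoter motifs were not analysed here.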

Additional observations from a re-analysis of the deposited data

Results flagged for a closer look

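The difference between KO-56 and the other 5 lines passed limma at 11 probe sets, and each is given here because the difference itself was tested; with a pseudocount of 20 there were 0 calls. On the log2 scale, KO-56 minus the other lines was 1.35 at 4CL8, -1.89 at AT1G33055, -1.75 at AT2G20560 and -1.68 at NET2D. At the unlisted probe sets it was -2.30 (267565_at), -1.66 (264094_at), -1.65 (260226_at), -1.62 (247431_at), -1.59 (247559_at), -1.56 (245613_at) and -1.54 (266886_at). At the 10 lower probe sets the KO-56 signal lay between 1.38 and 4.74 and the lowest signal of any other array was 9.46, so that the sizes of these differences depend on the pseudocount. By the labels each insertion line has 1 array and Col-0 has 2, so no array was tested for standing apart from its genotype.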

How the results depend on the processing

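At 2-fold, 42 probe sets were higher and 89 lower. A filter at the median left 4 and 7, no filter gave 345 and 179, a pseudocount of 1 gave 83 and 161, and one of 20 gave 4 and 4. With 1 Col-0 array left out the 2-fold counts lay between 84 and 88 higher and between 105 and 107 lower, judged by the same Col-0 difference. With the 2-fold difference alone, added after the data were seen, there were 96 higher and 114 lower against Col-0-L, and 96 and 116 against Col-0-S. The 1.5-fold rule on brighter probe sets, also added then, gave 66 and 74. At 2-fold, requiring the gap to the nearer Col-0 array to exceed that difference gave 33 and 84. The 1 limma call against Col-0 was 0 with a filter at the median, a pseudocount of 20 or trended and robust variance, 6 with no filter, and between 0 and 3 without 1 array (3 without KO-54). The 11 calls against the other lines were 0 in the first 3 of these settings, 26 with no filter, 19 after quantile normalization, and between 0 and 2 without 1 array (2 without KO-30); the cause was not tested.

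Of the named genes' differences, 443 values under these settings kept direction and side of the rule, 32 lost the rule (25 with a pseudocount of 20), 6 gained it and 4 turned. TINY2 turned to -0.0139 after quantile normalization. Over the settings without Col-0 replicate 1 or 2, PRX52 ran between -0.00394 and 0.982, HAT2 between -0.129 and 0.0686, GUT2 between -0.0802 and 0.218, the defensin and thionin median between -0.0185 and 0.0381, and the auxin median between -0.0330 and 0.0301. The defensin and thionin median was -0.0188 with centred arrays and the auxin median 0.0880 with no filter. No paired analysis was possible because KO-56 has 1 array and the groups share fewer than 2 replicate numbers. Low signal limits what a single array can show: 19.6% of its probe sets had a signal under 5.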

Other observations

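TINY2, a DREB-type transcription factor, was the only measured gene of its list past the filter and separated KO-56 and Col-0 from the other lines. Its signal was 26.6 in KO-56, between 9.30 and 18.0 in the other lines, and 24.8 and 25.7 in Col-0, and KO-56 minus the other lines was 0.89 ± 0.24 (SE), which did not pass limma (adjusted p = 0.307). GSTU28, a glutathione S-transferase, had 21.2 in KO-56, between 10.5 and 14.1 in the other lines, and 14.9 and 9.24 in Col-0. All 9 glutathione S-transferase probe sets were higher in KO-56 than the mean of the other lines, as were 8737 of all 15922 probe sets past the filter. NRT2.5, a nitrate transporter, had 17.9 in KO-56, between 9.47 and 13.0 in the other lines, and 11.5 and 9.17 in Col-0. BETA-VPE, a vacuolar protease, had 97.7 in KO-56, between 55.6 and 90.3 in the other lines, and 65.0 and 71.3 in Col-0. EFR, an immune receptor for a bacterial protein, had 34.0 in KO-56, between 20.9 and 28.6 in the other lines, and 21.6 and 26.1 in Col-0. At each of these 5 genes KO-56 was the highest array.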
